A study of Rattus norvegicus with 24 samples.

Results

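Dorsal root ganglia (DRG) of rats with a complete transection of the spinal cord (TX SCI) were compared with those of rats that were trained after a contusion (CONT SCI + SWIM and CONT SCI + SWW). The comparison took in every sample that carried one of these labels, which gave 14 of the 24 samples of the series, with 4 TX SCI, 5 CONT SCI + SWIM and 5 CONT SCI + SWW, 1 rat each. The series measured RNA from whole DRG caudal to the injury by sequencing of polyA-selected RNA. Adult female Sprague Dawley rats were used, without transgene or drug treatment as a variable. TX SCI rats had the cord cut at the T2 vertebra and were collected at 8.5 weeks, with no training. Both exercise groups received a moderately severe contusion at T2 with an impact of 25 g-cm and were collected at 13.5 weeks. Training was in water, either as swimming (SWIM) or as shallow water walking (SWW). It covered 10 weeks with 5 training days in each, and the first session was 2.5 weeks after injury. All rats lived in small cages that restricted movement. The remaining 10 samples, 4 No SCI and 6 CONT SCI without training, were collected at 11.5 weeks and are given beside single genes for reference. Type of injury, training and time after injury all changed together between TX SCI and the exercised groups, and their parts in any difference cannot be told apart.

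DRG hold the cell bodies of the sensory neurons of the trunk and limbs, wrapped in satellite glia and surrounded by Schwann cells, fibroblasts, vessels and immune cells. Their central branches enter the spinal cord. With the cord fully cut, the part below the injury gets no signals from the brain, while after a contusion some still arrive. Training adds sensory signals from the body. The ganglia of each rat were pooled over segments and both sides. In such bulk tissue, fewer cells of a type and less RNA per cell cannot be told apart. The matrix names genes by Ensembl identifier and holds no symbols, so markers of neurons, glia, muscle or blood were not used here, and the labelled tissue was not checked against them.

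The 14 libraries held between 16086670 and 38730307 counts on genes, with a median of 28132902 in TX SCI and 26125979 in the exercised samples. TX SCI held 28760000 ± 7700000 counts (SD, n = 4) and the exercised samples 24820000 ± 4705000 (SD, n = 10), a difference within the spread of the samples (two-sided exact permutation test, p = 0.263; 0.263 after Benjamini-Hochberg adjustment over 4 library measures). Of 3936000 counts, this difference went to 6843000 without TX SCI replicate 1 (exact permutation test, p = 0.0804) and to 612600 without TX SCI replicate 3 (p = 0.843). The number of genes with a count was 17215 to 17703 in TX SCI and 16915 to 17533 in the exercised samples (the same exact permutation test, p = 0.0769, adjusted 0.103). Counts were less concentrated on a few genes in the exercised samples than in TX SCI. The 10 genes with the most counts in a library took 7.70%, 8.65%, 7.79% and 8.31% of the counts in TX SCI replicates 1 to 4. They took 6.55% to 7.66% in the exercised samples, so the groups parted completely (p = 0.000999 by exact permutation, two-sided, the lowest value possible with 4 and 10 samples; adjusted 0.004). Untrained samples ran from 7.4% to 9.05% in CONT SCI (median 8.09%) and from 7.37% to 8.79% in No SCI (median 7.8%). Most of them lay at or above the lowest TX SCI value. The lowest reached into the exercised range, but none was as low as the exercised median of 6.99%. The single most counted gene was the same in all samples and took 2.03% ± 0.135 of the counts in TX SCI (SD, n = 4) and 1.67% ± 0.149 in the exercised samples (SD, n = 10; exact permutation test, p = 0.002, adjusted 0.004). Its median in untrained samples, 1.705% in CONT SCI and 1.68% in No SCI, was near that of the exercised samples, 1.67%. Untrained samples ran from 1.52% to 2.61% in CONT SCI and from 1.58% to 2.14% in No SCI. Both ranges reached into that of TX SCI, 1.86% to 2.17%.

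The places of 2 exercised libraries are given first. CONT SCI + SWW replicate 4 was the exercised sample nearest to TX SCI on the leading axis of variation and carried several genes close to TX SCI levels. What sets this library apart, and whether it is a property of the rat or of the sample, was not tested. CONT SCI + SWIM replicate 3 lay lowest of all 14 samples on the second axis, at -7.44, in a group that was widely spread there. The other samples of that group ran from -4.25 to 3.05. In the principal component analysis (PCA) of the 14 samples, on the 500 most variable genes after variance stabilization, PC1 held 46.2% of the variance and PC2 13.8%. TX SCI replicates 1 to 4 lay at 4.88, 10.2, 8.66 and 11.7 on PC1. CONT SCI + SWIM replicates 1 to 5 lay at -2.14, -2.68, -4.88, -4.03 and -2.69. CONT SCI + SWW replicates 1 to 5 lay at -8.37, -7.33, -4.21, 2.16 and -1.30. All 4 TX SCI samples were above all exercised samples, and replicate 4 of CONT SCI + SWW was the only exercised sample on the positive side. The means differed by 12.4 (p = 0.000999 by exact permutation, again the lowest possible; adjusted 0.002 over both axes). Without CONT SCI + SWW replicate 4 they differed by 12.9 (exact permutation test, p = 0.0014). On PC2 the groups were interleaved, with a difference of 0.184 (exact permutation test, p = 0.928, adjusted 0.928). The size of this small difference is not stable, since it was 1.59 without CONT SCI + SWIM replicate 3, 1.25 without CONT SCI + SWW replicate 4, 0.00524 without CONT SCI + SWIM replicate 2, 3.67 with all genes and 4.64 on log2 normalized counts (p from 0.407 to 0.999, exact permutation tests).

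**Figure D1:**
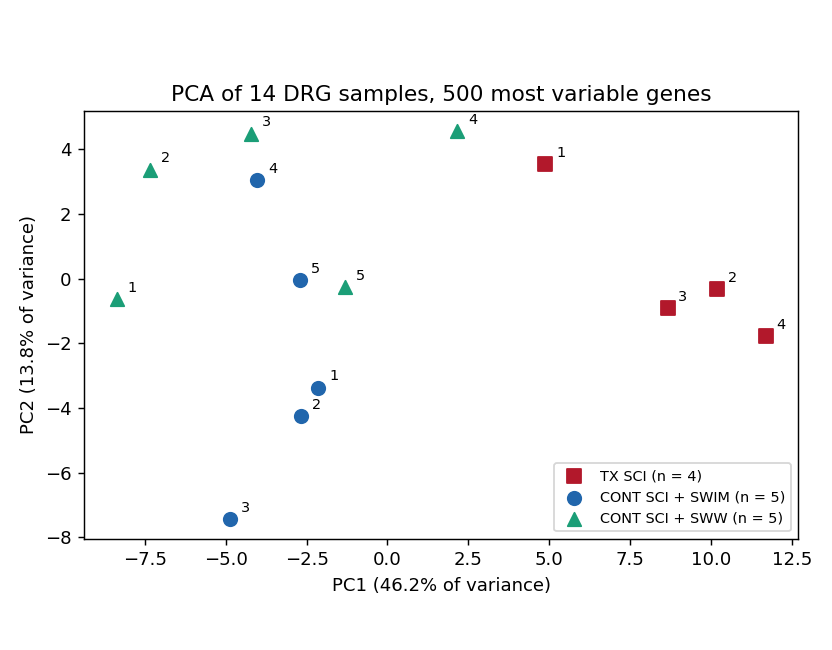
Position of the 14 samples on PC1 (x axis, 46.2% of variance) and PC2 (y axis, 13.8%) of the 500 most variable genes; each point is 1 rat, numbered by replicate, with TX SCI as squares, CONT SCI + SWIM as circles and CONT SCI + SWW as triangles. TX SCI lies between 4.88 and 11.7 on PC1, and CONT SCI + SWW replicate 4, at 2.16, is the exercised sample closest to it.

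At the level of single genes, transected and exercised ganglia differed widely but mostly by small amounts. Of 15247 genes tested, 3246 (21.3%) differed between TX SCI and the mean of the exercise groups with an adjusted p below 0.05 (quasi-likelihood test of edgeR, Benjamini-Hochberg adjusted), 1798 higher in TX SCI (11.8% of all tested) and 1448 lower (9.50%). The median size of a called difference was 0.316 on the log2 scale, with a median standard error of 0.0811. Of the called genes, 1042 differed by less than 0.25 on the log2 scale and 1507 by 0.25 to 0.5. A difference of at least 1 was reached by 169 genes (1.11% of all tested), 122 higher in TX SCI and 47 lower. Among the 169 genes, 53 reached 2, with 36 higher and 17 lower. The excess of higher over lower genes rested on single libraries and on the fit. Without CONT SCI + SWIM replicate 4 it turned, with 1478 genes higher in TX SCI and 1547 lower, and without CONT SCI + SWIM replicate 3 the directions were nearly level, with 1677 and 1667. It also turned in the fit of the 14 samples alone, with 1705 genes higher and 1810 lower, and with all libraries thinned to the smallest total, with 1365 higher and 1452 lower. The median log2 difference over all tested genes was 0.0328, and 0.0136, 0.0176 and 0.0149 without TX SCI replicate 4, CONT SCI + SWIM replicate 3 and CONT SCI + SWIM replicate 4 in turn.

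The count of genes moved more with a TX SCI library left out than with an exercised one. With 4 TX SCI and 10 exercised samples, each TX SCI library is a larger part of its group. A larger change is thus likely from the group sizes alone, and the counts do not compare the libraries themselves. Without TX SCI replicate 4, 1886 genes were called, 987 higher and 899 lower. This library was the highest of the 4 TX SCI samples in 67 of the 122 genes with larger rises. Those genes were chosen with it in the fit, so this count is no separate measure. Without TX SCI replicates 1, 2 and 3 in turn, 3353, 2371 and 2479 genes were called, so without replicate 1 the count rose. Leaving out 1 exercised sample gave 2936 to 3450 genes, with 3450 without CONT SCI + SWW replicate 4 and 3344 without CONT SCI + SWIM replicate 3. Of the 3246 genes, 1528 (47.1%) were called in every one of the 14 fits that left out a sample, 764 of them higher in TX SCI and 764 lower. Among these 1528 genes were 119 of the 169 that differed by at least 1 on the log2 scale, with 94 higher and 25 lower.

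The CPM of TX SCI and exercised samples (counts scaled to a common library size) did not overlap in 1182 of the 15247 genes (7.75%), 514 of them higher in TX SCI (3.37%) and 668 lower (4.38%). Of the 3246 called genes, 1114 were without overlap, with 478 higher and 636 lower. Of the 169 genes with differences of at least 1 on the log2 scale, 70 were without overlap, so in most of the larger differences at least 1 sample reached into the range of the other group. Most of these 169 genes were also sparse, since 119 had a mean log2 CPM under 1. At a mean log2 CPM of at least 1, 20 of them did not overlap, 14 higher and 6 lower in TX SCI.

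The direction of the difference went with the level of the gene. Among 1602 genes with a mean log2 CPM above 7 (128 CPM) over the 14 samples, 516 were called (32.2%), of which 114 were higher in TX SCI and 402 lower. Between 5 and 7, 419 were higher and 566 lower. In the class from 3 to 5, 692 were higher and 276 lower, and from 1 to 3 the counts were 344 and 133. Of 2755 genes at or below 1 (2 CPM), 300 were called (10.9%), 229 higher and 71 lower. The share of called genes that were higher in TX SCI thus went from 76.3% in the lowest class to 22.1% in the highest. With each sample left out, the share ran from 67.8% (without TX SCI replicate 1) to 81.7% (without TX SCI replicate 3) in the lowest class and from 15.7% (without CONT SCI + SWIM replicate 4) to 32.8% (without TX SCI replicate 1) in the highest. The median log2 difference over all genes of a class, called or not, was 0.0954 in the lowest class and -0.0601 in the highest. By this measure, weak genes tended to be higher, and strong genes lower, in transected ganglia. The level is the mean over the same 14 samples, of which 10 were exercised, so level and difference share their values. A gene found almost only in TX SCI falls in a low class for that reason. Among genes with at least 10 counts in every one of the 14 samples, the shares were 73.2% in the lowest class and 22.8% in the highest. The share of counts on the top 10 genes went the other way from the strong genes, since it was higher in TX SCI than in the exercised samples. The part of that share in the pattern was not tested. Genes are not independent of each other, so no test is given for these shares.

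**Figure D2:**
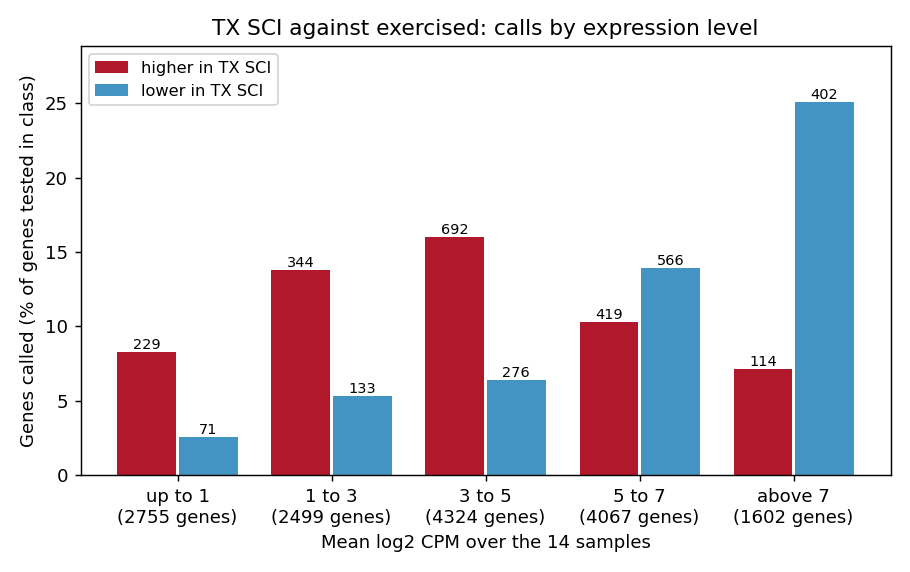
Share of tested genes called higher (red) or lower (blue) in TX SCI than in the exercised samples (y axis, % of genes tested in the class), by mean log2 CPM over the 14 samples (x axis); the number of genes stands above each bar. Calls go from mostly higher at or below 1 (229 against 71) to mostly lower above 7 (114 against 402).

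Set against each form of training on its own, TX SCI differed from CONT SCI + SWIM at 2193 of 15247 genes (14.4%) and from CONT SCI + SWW at 3359 (22.0%) by the same edgeR test. In the first comparison 1133 genes were higher in TX SCI (7.43%) and 1060 lower (6.95%), with 160 differences of at least 1 on the log2 scale (1.05%). In the second 1836 were higher (12%) and 1523 lower (9.99%), with 216 of at least 1 (1.42%). Neither excess of higher genes was stable. Against CONT SCI + SWIM it turned with RLE scaling (1052 higher, 1115 lower), with DESeq2 (1184 and 1293), in the 14 samples alone (1056 and 1343), in thinned libraries (842 and 1044) and without TX SCI replicate 4 (661 and 672). It also turned without CONT SCI + SWIM replicates 1 (843 and 858), 2 (872 and 906), 3 (766 and 976) or 4 (930 and 1040), and without CONT SCI + SWW replicate 3 (1018 and 1040). A filter of at least 10 counts in each of the 14 samples (1055 and 1090), a replicate block (803 and 818) and a threshold of 0.01 (420 and 447) turned it as well. Against CONT SCI + SWW it turned in the 14 samples alone (1728 and 1788), in thinned libraries (1385 and 1480), and without CONT SCI + SWIM replicate 3 (1700 and 1718) or 4 (1620 and 1677). Without TX SCI replicate 4 the counts of called genes were 1333 against CONT SCI + SWIM and 2026 against CONT SCI + SWW. They were 2250 and 3153 without CONT SCI + SWW replicate 4, and 1742 and 3418 without CONT SCI + SWIM replicate 3. The median size of a called difference was 0.349 against CONT SCI + SWIM and 0.347 against CONT SCI + SWW. Both comparisons use the same 4 TX SCI samples. The difference between them is that between the exercise groups, in which 543 genes (3.56%) were called in the same fit, 472 higher in CONT SCI + SWIM (3.1%) and 71 lower (0.466%), and 8 of them differed by at least 1 (0.0525%). Without CONT SCI + SWW replicate 4 the count of 543 went to 223, and without CONT SCI + SWIM replicate 3 to 167. Without CONT SCI + SWIM replicate 2, CONT SCI + SWW replicate 2 and CONT SCI + SWW replicate 5 in turn it was 321, 236 and 828. The 71 genes lower in CONT SCI + SWIM were the less stable part. They went to 2 without CONT SCI + SWIM replicate 3 and to 6 without CONT SCI + SWW replicate 4. Without CONT SCI + SWW replicate 5 they went to 190, and at a threshold of 0.01 to 0. The spread within groups was alike, with a median SD of log2 CPM over 15247 genes of 0.128 in TX SCI, 0.133 in CONT SCI + SWIM and 0.131 in CONT SCI + SWW.

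Single genes are given by Ensembl identifier, as the largest rises and falls among called genes that did not overlap and reached a mean log2 CPM of 1. Their lack of overlap and low adjusted p thus follow from the rule and are no separate result. The largest such rise was in ENSRNOG00000006360, which was raised in every transected rat. It stood at 32.4, 12.8, 15.6 and 22.6 CPM in TX SCI replicates 1 to 4. In CONT SCI + SWIM replicates 1 to 5 it stood at 1.59, 1.36, 0.649, 0.729 and 2.51 CPM, and in CONT SCI + SWW at 0.768, 0.597, 1.12, 9.25 and 2.79. The groups did not overlap, and CONT SCI + SWW replicate 4 was the exercised sample nearest to TX SCI. The log2 fold change was 3.41 (standard error 0.45, edgeR adjusted p = 3.01e-05), and 3.94 without that sample. Untrained contused rats ran from 1.35 to 9.16 CPM (median 4.65, n = 6) and No SCI rats from 0.345 to 1.24 (median 0.818, n = 4). The level in TX SCI was thus above that of every other sample of the series, and the exercised median of 1.24 CPM was below the CONT SCI median.

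ENSRNOG00000011483 was also higher in all TX SCI samples, with a wider spread among them. It stood at 22.4, 63.4, 30.9 and 87.0 CPM in TX SCI replicates 1 to 4. The exercised samples ran from 1.23 CPM in CONT SCI + SWIM replicate 4 to 17.2 in CONT SCI + SWW replicate 4, with medians of 9.68 in CONT SCI + SWIM and 3.60 in CONT SCI + SWW. The groups did not overlap, and both trained groups spread over several-fold. The log2 fold change was 2.80 (standard error 0.44, edgeR adjusted p = 0.000116), at 2.83 against CONT SCI + SWIM and 2.77 against CONT SCI + SWW. It ran from 2.39 without TX SCI replicate 4 to 3.05 without CONT SCI + SWW replicate 4. CONT SCI samples lay between 0.406 and 2.19 CPM and No SCI samples between 0.897 and 3.30, around or below the lowest exercised samples.

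The largest such fall was in ENSRNOG00000009465, which was scarce in transected ganglia. It stood at 1.29, 1.10, 0.383 and 0.677 CPM in TX SCI replicates 1 to 4, which are 15 to 32 counts a library. In CONT SCI + SWIM it ran from 2.77 to 9.79 CPM (median 4.38, n = 5) and in CONT SCI + SWW from 2.66 to 5.64 (median 4.38, n = 5). Every exercised sample was above every TX SCI sample. The log2 fold change was -2.50 (standard error 0.38, edgeR adjusted p = 8.94e-05), and -2.55 without CONT SCI + SWW replicate 4. CONT SCI samples ran from 2.70 to 5.22 CPM, within the exercised range, and No SCI from 1.18 to 3.83, which overlapped with TX SCI.

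ENSRNOG00000016164 was lower in TX SCI than in the exercised samples by less. It stood at 4.70, 2.99, 1.35 and 2.6 CPM in TX SCI replicates 1 to 4. CONT SCI + SWIM replicates 1 to 5 stood at 8.48, 7.03, 8.34, 7.52 and 8.04 CPM, and CONT SCI + SWW at 6.81, 8.69, 6.34, 14.5 and 7.03. The groups did not overlap, and CONT SCI + SWW replicate 4 here lay farthest from TX SCI. The log2 fold change was -1.55 (standard error 0.29, edgeR adjusted p = 0.000649), and -1.43 without that sample. No SCI samples ran from 6.01 to 10.8 CPM and CONT SCI samples from 4.37 to 11.9, so only CONT SCI reached into the TX SCI range. In none of these 4 genes did the difference between the exercise groups pass the threshold (edgeR adjusted p from 0.412 to 0.969), which does not show that they were equal. Counts do not show whether reads of these 4 genes also match similar genes.

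**Figure D3:**
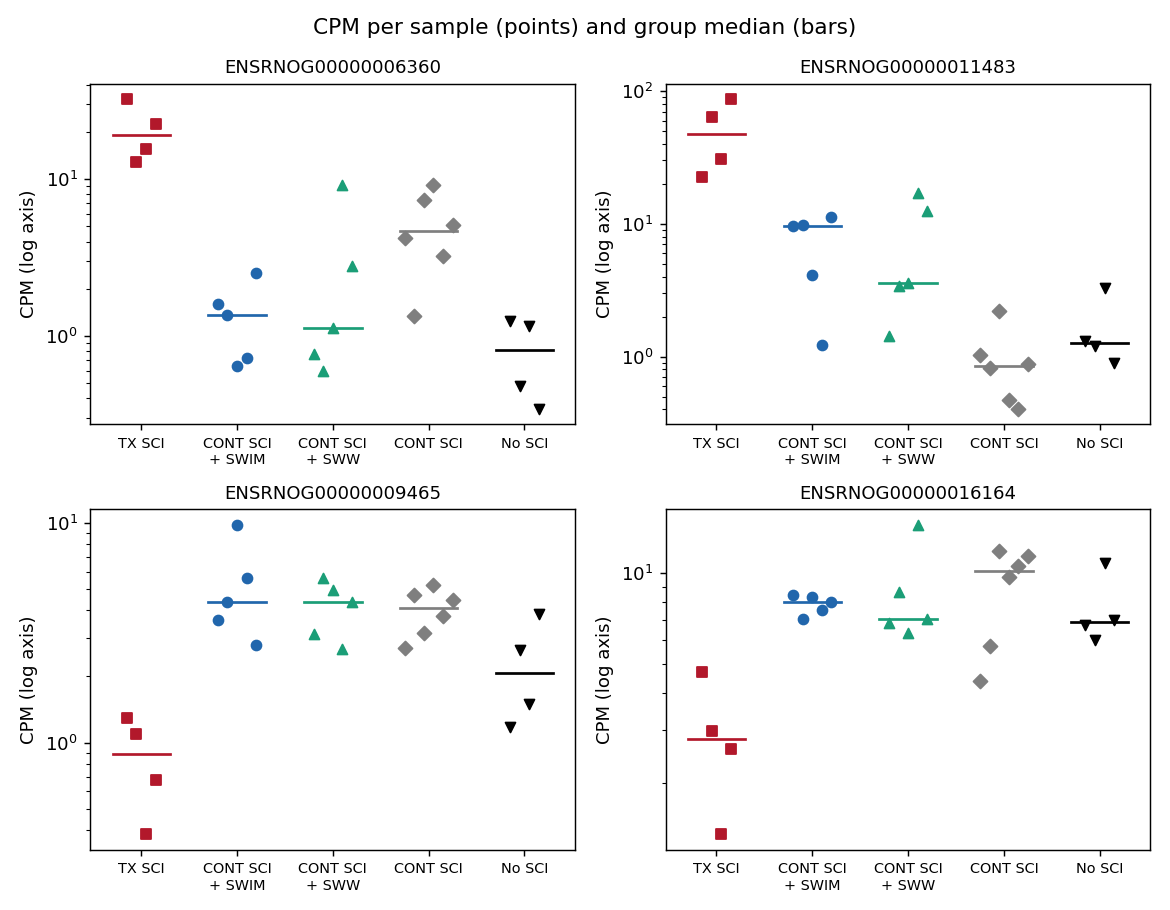
CPM per sample (y axis, log scale) of 4 genes in the 5 groups (x axis), with 1 point per rat and a bar at the group median. ENSRNOG00000006360 and ENSRNOG00000011483 are higher in all 4 TX SCI samples than in all 10 exercised samples, and ENSRNOG00000009465 and ENSRNOG00000016164 are lower.

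At the other end of the scale, 2 of the 15247 genes tested were close to absent from the exercised samples (median under 0.1 CPM) while every TX SCI sample had at least 1 CPM. The reverse, at least 1 CPM in every exercised sample and a TX SCI median under 0.1 CPM, held for 0 genes. The rule was chosen after the values were seen. The first of the 2 genes had 40, 56, 100 and 48 counts in TX SCI replicates 1 to 4, or 1.71 to 2.55 CPM. In 9 of the 10 exercised samples it had at most 1 count, and in CONT SCI + SWW replicate 4 it had 30 counts, or 1.48 CPM. No untrained sample had more than 1 count. The second had 58, 79, 140 and 95 counts in TX SCI, or 2.72 to 3.57 CPM, and 52 counts, or 2.56 CPM, in CONT SCI + SWW replicate 4. The other exercised samples had at most 9 counts (0.299 CPM), and untrained samples at most 5 (0.145 CPM). In both genes CONT SCI + SWW replicate 4 was just below the lowest TX SCI sample and far above all other samples without a transection. Whether reads or RNA of another sample are part of this library, through carry-over of indexes or mixing, was not tested, and its values in these genes are given with that doubt.

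CONT SCI + SWW replicate 4 was the highest of the 10 exercised samples in 57 of the 122 genes that rose by at least 1 on the log2 scale in TX SCI, and every other exercised sample was in 1 to 15. Among the 47 falls it was the lowest of the 10 in 13, as was CONT SCI + SWW replicate 5. It was the only exercised sample that kept TX SCI and the exercised group from parting in 333 genes (2.18% of those tested), 192 of them higher and 141 lower in TX SCI than in the other 9 samples. CONT SCI + SWIM replicate 3 did so in 287 genes (1.88%), 166 higher and 121 lower, and each of the other exercised samples in 37 to 147 (0.243% to 0.964%). To place each library without using it to choose genes, genes were called without it, and its log2 CPM was set on a scale from 0 (the mean of the other exercised samples) to 1 (the mean of the other TX SCI samples). Each library thus has its own set of genes, so positions of different libraries compare only roughly. Over all called genes the median position of the exercised samples ran from -0.120 to 0.253, with CONT SCI + SWIM replicate 3 highest, CONT SCI + SWIM replicate 2 at 0.217 and CONT SCI + SWW replicate 4 at 0.210. Over called genes higher in TX SCI, CONT SCI + SWW replicate 4 lay at 0.296 and CONT SCI + SWIM replicate 3 at 0.311. Over those lower in TX SCI it lay at 0.109, below CONT SCI + SWIM replicates 2 (0.238) and 3 (0.207). Over rises of at least 1 on the log2 scale, CONT SCI + SWW replicate 4 lay at 0.507 (134 genes), and the other exercised samples lay between -0.250 and 0.292. TX SCI replicates 1 to 4 lay at 0.581, 0.898, 0.860 and 1.12 over all called genes (3347, 2365, 2470 and 1882 genes). On this measure replicate 1 was the transected sample nearest to the exercised group. Over rises of at least 1 on the log2 scale they lay at 0.624, 1.02, 0.742 and 1.21. The 3 exercised samples with the highest positions over all called genes were those with the fewest counts, at 16086670 in CONT SCI + SWIM replicate 2, 20063150 in CONT SCI + SWW replicate 4 and 20112457 in CONT SCI + SWIM replicate 3. TX SCI replicate 1, with 20040086 counts, also had the fewest of its group. The part of depth in these positions was not tested.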

How the data were processed

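Per the labels and the paper's methods, the authors aligned reads to Rn6 with STAR and counted them per Ensembl gene with HTSeq 0.10.0, by strand and without mitochondrial genes. The deposited matrix holds raw counts, in which genes that resemble or overlap each other are uncertain. Its 24 columns were assigned to samples by name.

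All 24 samples were fitted by group in edgeR 4.0.16 (R 4.3.3), with TX SCI set against the mean of both exercise groups. Genes were kept by filterByExpr (minimum count 10, total 15), scaling was by TMM, and glmQLFTest p-values were adjusted by Benjamini-Hochberg over 15247 genes. Standard errors are the size of the log2 fold change over the root of F. The PCA used the blind transformation of DESeq2 1.42.0. Scripts were tested on simulated data. Pairs of samples of a group differed beyond counting noise (chi-square per gene 2.89 to 21.4 over 26 pairs).

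Members, gene lists and tests were chosen with earlier results of these data known. The annotation at hand (GRCr8, 47357 genes) has 0 genes with an Ensembl identifier, and the files do not pair identifiers with names, so gene lists, markers and promoter sequences were not used here. The rule named the 2 largest rises and 2 largest falls that were called, did not overlap and reached a mean log2 CPM of 1. Alternatives were RLE scaling, DESeq2's test, other filters, the 14 samples alone, the exercised samples as 1 group, a replicate block, a threshold of 0.01, other PCA settings and each replicate left out. The comparison of the exercise groups, the expression classes, the measures of concentration and the positions of single libraries were added after the data were seen. So were thinned libraries, RLE scaling of CPM, total counts with a sample left out, and the named genes with exercised samples as 1 group or at least 10 counts in every sample.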

Additional observations from a re-analysis of the deposited data

Results flagged for a closer look

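Of 41 sets of values, each from the samples of 1 group, 3 had a sample far from the rest, where about 2.05 are expected by chance. CONT SCI + SWW replicate 4 had 9.25 CPM of ENSRNOG00000006360, against 0.597 to 2.79 in the other samples of its group, and 14.5 CPM of ENSRNOG00000016164, against 6.34 to 8.69. In the first gene it lay toward TX SCI and in the second away from it. CONT SCI replicate 3 had 2.19 CPM of ENSRNOG00000011483, against 0.406 to 1.03 in the other untrained contused samples. The difference from TX SCI was not the same for swimming and shallow water walking at 543 genes, as tested by edgeR between the exercise groups.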

How the results depend on the processing

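An adjusted p threshold of 0.01 left 1617 genes between TX SCI and the exercised samples, 867 against CONT SCI + SWIM, 1590 against CONT SCI + SWW and 147 between the exercise groups. At 0.05, DESeq2 called 855 between the exercise groups, against 543 by edgeR. With each of the 14 samples left out, the edgeR counts at 0.05 for the same 4 comparisons ran from 1886 to 3450, 1333 to 2326, 2026 to 3654 and 167 to 828, and without TX SCI replicate 4 the first 3 were at their lowest. Other scaling, tests, filters and the 14 samples alone gave 3079 to 3573 genes for TX SCI against exercised, the exercised samples as 1 group gave 2927, and all genes called there and among the 3246 had the same sign in both. Differences of at least 1 on the log2 scale numbered 137 to 222 with a sample left out. A block by replicate number gave 2617 genes. Same-numbered samples of different groups are different rats, their deviations correlated at -0.117 to 0.137 over 13 pairs, and 2 of 14 samples correlated best with their own number, so the numbers do not pair them. The 4 named genes kept direction and an adjusted p under 0.05 in every fit run. The PC1 difference ran from 11.2 to 13.5 with a sample left out. In every setting its p was the lowest possible for the number of samples (0.000999 to 0.0035, exact permutation tests). These p-values therefore do not measure stability. The PC1 share of variance fell from 46.2% to 29.9% with all genes. Thinning every library to 16086670 counts left 2817 genes, 2589 of them among the 3246, so 657 calls were lost at that depth. The alternatives for gene lists were not run, since no gene was matched to a symbol.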
